A study of Mus musculus with 8 samples.

Results

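The 10 genes described here are 4 receptors (Notch1, Notch2, Notch3, Notch4), 3 ligands (Dll4, Jag1, Jag2) and 3 target genes (Hey1, Heyl, Hes1) of the Notch pathway. They were chosen by gene symbol from the 54532 genes of a bulk RNA-seq data set of mouse lung endothelial cells (ECs). Earlier results of these data were known when they were chosen. All 10 passed the filter on low counts and were among the 15564 genes tested. The ECs came from wild-type C57BL/6J pups at day 14. One group of 4 libraries came from pups reared in room air (normoxia, 21% O2), and the other group of 4 from pups reared in hyperoxia (80% O2), in both cases from birth. No transgene or deletion was carried by either group. Per the study's methods, CD45-positive cells (leukocytes) were removed with beads, and the cells that then bound CD31 beads (CD31 is a surface protein of ECs) were collected. High oxygen in newborn mice is used to mimic bronchopulmonary dysplasia, a lung disease that follows preterm birth. The comparison asks which Notch genes differed in level between ECs of the 2 groups.

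Notch receptors are surface proteins that are switched on by ligands on a neighbouring cell. Binding leads to cleavage of the receptor, and its released intracellular part enters the nucleus and acts with the DNA-binding protein RBPJ on target genes, among them the repressors of the Hes and Hey families. In blood vessels the pathway is known for arterial identity and for the choice between leading and trailing ECs in a growing sprout, with Notch1, Notch4, Dll4, Jag1 and Jag2 in ECs and Notch3 mainly in mural cells, the pericytes and smooth muscle cells that wrap the vessel.

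Each library held 16098086 to 18300730 gene counts. The isolates were rich in EC transcripts: 12 pan-endothelial markers, led by Cdh5, Pecam1 and Cldn5, summed to 17990.1 to 19000.2 CPM (counts scaled to a fixed library total) in normoxia and 18178 to 19145 CPM in hyperoxia, and 5 of the 12 were higher and 3 lower in hyperoxia at an adjusted p under 0.05. Transcripts of other lung cells were also counted. Summed markers of alveolar type 2 (AT2) epithelium were 292 to 433 CPM in normoxia and 878 to 2629.6 CPM in hyperoxia, with all 10 markers higher (Sftpc, Lyz2 and Abca3 were the most abundant). All 8 markers of alveolar type 1 epithelium were also higher in hyperoxia (Ager, Hopx, Cldn18 the most abundant; sums of 75.8 to 93.7 against 157 to 432 CPM), as were 6 of 9 tested fibroblast markers (Col3a1, Col1a2, Npnt; 152 to 299.5 against 231 to 554 CPM). Of the airway markers 1 of 3 tested was higher (Tppp3, the most abundant before Foxj1 and Scgb1a1; Krt5 was at 0 in all libraries and Ccdc153 in those of normoxia; 58.4 to 79.8 against 78.9 to 109.9 CPM). Of 8 leukocyte markers none was higher and 1, Cd68, was lower (114 to 225 against 116 to 209 CPM, Ptprc and Csf1r being the others among the 3 most abundant). Hyperoxia library 3 had the lowest sums of epithelial, fibroblast and mural markers in its group. In 5 of the 8 libraries both Xist and Y-linked genes had over 100 counts, and how many pups went into a library was not stated. The labels do not say whether the libraries came from separate animals, and p-values then measure only the spread between these libraries.

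Of the 10 Notch genes, 5 changed in hyperoxia at an adjusted p under 0.05 (edgeR quasi-likelihood test with Benjamini-Hochberg adjustment over all 15564 genes). Among all genes tested 35.6% passed this threshold; the shares were not compared by a test. Hey1, Hes1 and Jag1 fell (3 of 10, where 17.1% of all genes were lower), and Notch3 and Notch2 rose (2 of 10, where 18.5% of all genes were higher). Only Notch3 (1 of 10) also moved by 1 or more on the log2 scale, against 6.98% of all genes. The 4 values of normoxia and the 4 of hyperoxia did not overlap for Hey1, Hes1 and Jag1 (3 of 10), against 35.4% of all genes. The median log2 fold change of the 10 genes was -0.09, and that of all genes tested was -0.004.

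**Figure D1:**
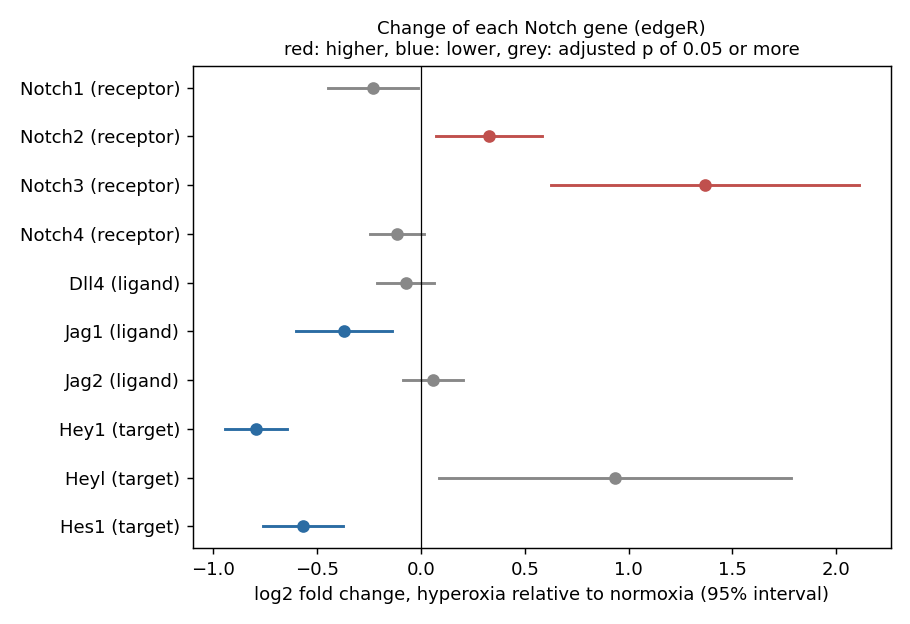
Log2 fold change of each Notch gene in hyperoxia relative to normoxia (x axis; dots, edgeR estimates from 4 libraries a group; lines, 95% intervals), with the genes ordered by role on the y axis. The intervals of Hey1, Hes1 and Jag1 lay below 0 and those of Notch2 and Notch3 above it, and the grey intervals of Notch1 and Heyl also lay off 0 although their adjusted p was 0.05 or more.

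Among the receptors, Notch1 and Notch4 carried nearly all of the transcripts and neither passed the test. For Notch1, a receptor needed for vessel development and for arterial identity, normoxia libraries 1 to 4 had 670.2, 924, 676 and 865 CPM, and hyperoxia libraries 1 to 4 had 654, 685, 683 and 649 CPM. The normoxia libraries split into a lower pair (1 and 3), which lay within the range of hyperoxia, and a higher pair (2 and 4), while the hyperoxia libraries lay close together. The means were 784 ± 130.2 CPM (SD, n = 4) and 668 ± 19.0 CPM (SD, n = 4), a log2 fold change of -0.23 (SE 0.0987, 95% interval -0.45 to -0.01) with an adjusted p of 0.0936. It passed the threshold when normoxia library 1 (log2 fold change -0.30, adjusted p = 0.0312) or normoxia library 3 (-0.29, adjusted p = 0.0378) was left out, and not when any other single library was.

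Notch4, a receptor largely restricted to endothelium, had 662 to 755 CPM in normoxia and 609.9 to 700.5 CPM in hyperoxia. These ranges overlapped, and the log2 fold change of -0.12 (SE 0.0582, 95% interval -0.24 to 0.01) had an adjusted p of 0.149. The 95% interval leaves room for a decrease of at most 0.24 on the log2 scale.

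Notch2, a receptor also expressed by mural, stromal and myeloid cells, was far less abundant, at 2.28 FPKM (a level per length of the gene and per library size) in normoxia against 54.6 for Notch1 and 88.1 for Notch4. Its libraries had 26.8, 22.6, 29.0 and 20.5 CPM in normoxia and 35.4, 31.2, 26.7 and 30.8 CPM in hyperoxia. The groups overlapped, since hyperoxia library 3 was below normoxia libraries 1 and 3. The means of 24.7 ± 3.83 CPM (SD, n = 4) and 31.0 ± 3.54 CPM (SD, n = 4) gave a log2 fold change of 0.33 (SE 0.116, 95% interval 0.07 to 0.58) with an adjusted p of 0.0477, just inside the threshold. It was past the threshold in 7 of 19 alternative analyses. Leaving out normoxia library 1, 2 or 4, or hyperoxia library 1, 2 or 4, gave adjusted p of 0.0560, 0.115, 0.123, 0.130, 0.0942 and 0.0826. Hyperoxia library 3, the lowest of its group for Notch2, also had the lowest sums of epithelial, fibroblast and mural markers in that group. The part of transcripts of cells other than ECs in the Notch2 result was not tested.

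Notch3, the receptor that mural cells are known for, had the largest log2 fold change of the 10 genes. Normoxia libraries 1 to 4 had 12.2, 5.92, 6.43 and 4.75 CPM, and hyperoxia libraries 1 to 4 had 17.8, 27.6, 9.62 and 20.2 CPM. Hyperoxia library 2 was the highest, and the groups overlapped at 1 point, where hyperoxia library 3 was below normoxia library 1. The means rose from 7.32 ± 3.32 CPM (SD, n = 4) to 18.8 ± 7.43 CPM (SD, n = 4), a log2 fold change of 1.37 (SE 0.335, 95% interval 0.63 to 2.11, adjusted p = 0.00888).

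**Figure D2:**
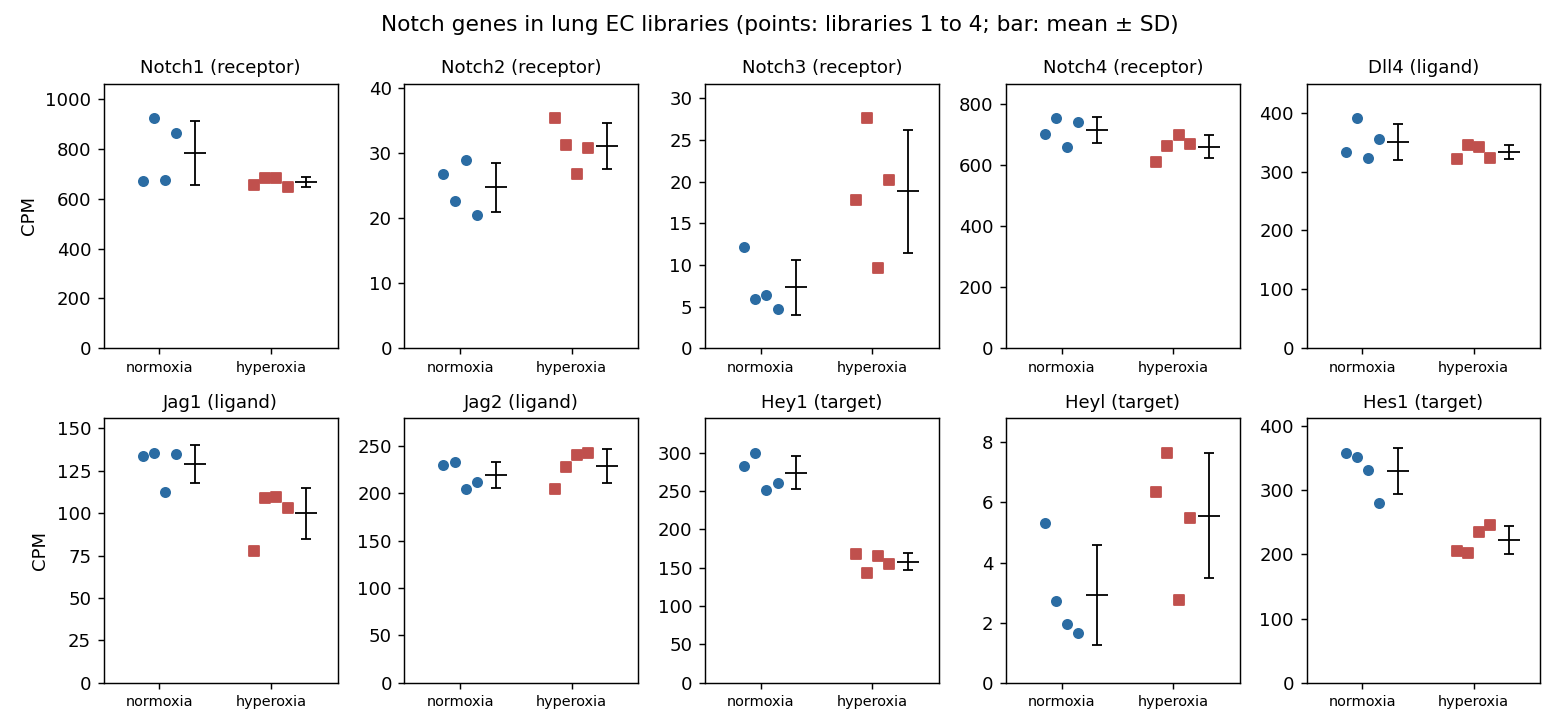
CPM of the 10 Notch genes in each library (y axes from 0; circles, normoxia libraries 1 to 4 from left to right; squares, hyperoxia libraries 1 to 4; crossed bars, mean ± SD). The 4 hyperoxia points lie below all 4 normoxia points for Jag1, Hey1 and Hes1, and the points of the groups overlap in the other panels.

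The Notch3 rise went together with a rise of mural transcripts. Of 15 mural markers (Rgs5, Gucy1a1 and Pdgfrb the most abundant, and Notch3 and Heyl not among them), 14 were tested, 8 were higher in hyperoxia and none lower, with a median log2 fold change of 0.92. No mural marker was at 0 throughout either group. The summed level of the 15 was 116, 80.1, 72.2 and 67.0 CPM in normoxia libraries 1 to 4 and 156, 222, 133 and 179 CPM in hyperoxia libraries 1 to 4. The order of the libraries was nearly that of Notch3, with normoxia library 1 the highest of its group, hyperoxia library 2 the highest and hyperoxia library 3 the lowest of theirs. The same was so for the summed fibroblast markers. These were at 299.5, 177, 188 and 152 CPM in normoxia libraries 1 to 4 and at 469, 554, 231 and 436 CPM in hyperoxia libraries 1 to 4. Per mural sum, the log2 ratio of Notch3 was -3.58 ± 0.262 (SD, n = 4) in normoxia and -3.27 ± 0.355 (SD, n = 4) in hyperoxia, a difference of 0.31 with overlapping ranges (-3.82 to -3.25 and -3.79 to -3.01). The part of mural transcripts, and that of the epithelial and fibroblast markers that were also higher in hyperoxia, in the Notch3 result was not tested. In bulk RNA, more cells of a type and more RNA per cell cannot be told apart, and likewise for fewer cells and less RNA.

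**Figure D3:**
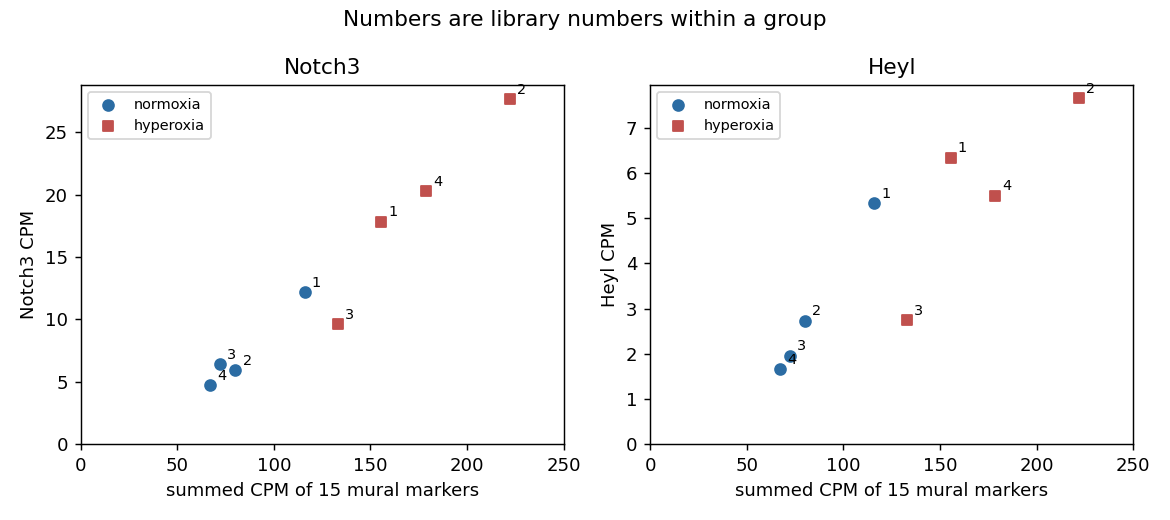
CPM of Notch3 (left y axis) and Heyl (right y axis) against the summed CPM of 15 mural markers (x axes), 1 point per library, with library numbers beside the points. The libraries with the highest marker sums, at 222 CPM in hyperoxia and 116 CPM in normoxia, were also the highest of their group for Notch3, and the same was so for Heyl.

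Among the ligands, Dll4 and Jag2 did not pass the test and Jag1 fell. Dll4, the ligand of sprouting tips and arteries, had 323 to 391 CPM in normoxia and 322 to 346 CPM in hyperoxia, with a log2 fold change of -0.07 (SE 0.0622, 95% interval -0.21 to 0.06, adjusted p = 0.391). Jag2, another ligand made by ECs, had 204 to 233 CPM in normoxia and 204 to 243 CPM in hyperoxia, with a log2 fold change of 0.06 (SE 0.0654, 95% interval -0.09 to 0.20, adjusted p = 0.522). The groups overlapped for both ligands.

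Jag1, a ligand through which ECs signal to mural cells and to one another, had 134, 136, 113 and 135 CPM in normoxia libraries 1 to 4 and 78.0, 109, 109 and 103 CPM in hyperoxia libraries 1 to 4. All hyperoxia values lay below all normoxia values, although normoxia library 3 was only slightly above the 2 highest hyperoxia libraries, and hyperoxia library 1 was the lowest. The means of 129 ± 11.1 CPM (SD, n = 4) and 99.9 ± 14.9 CPM (SD, n = 4) correspond to 0.774 of the normoxia level, a log2 fold change of -0.37 (SE 0.104, 95% interval -0.60 to -0.14, adjusted p = 0.0176). Relative to the pan-endothelial marker sum the log2 level of Jag1 was 0.41 lower.

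RefSeq promoter windows (build GRCm38.p6, 250 bases before to 50 after the start) were matched for 7 of the 10 Notch genes, all but Hey1, Heyl and Hes1. They were searched on both strands for GTGGGAA and for TGGGAA, which is contained in it, the core letters bound by RBPJ. None of the 7 genes had either motif in its window, against 6.38% (GTGGGAA) and 25.6% (TGGGAA) of 32851 windows of all genes. The window of Jag1, the 1 ligand of the 3 that fell, is shown up to its start, without a match and so without capitals. The window of Hey2, a Hey family target outside the 10 genes that also fell, is shown beside it because it held GTGGGAA at 2 places, in capitals, at positions -207 to -201 as the reverse complement TTCCCAC and at -4 to 3 on the printed strand. Both lie on the minus strand, Jag1 at chr2:137116521-137116770 and Hey2 at chr10:30842781-30843033. Of the other genes listed as targets with a window, Hes5 also held GTGGGAA at 2 places and Hes7 at 1. Both genes were too low to be tested. Hes6 and Nrarp held none. A match is only a description of the letters in this window.
Jag1: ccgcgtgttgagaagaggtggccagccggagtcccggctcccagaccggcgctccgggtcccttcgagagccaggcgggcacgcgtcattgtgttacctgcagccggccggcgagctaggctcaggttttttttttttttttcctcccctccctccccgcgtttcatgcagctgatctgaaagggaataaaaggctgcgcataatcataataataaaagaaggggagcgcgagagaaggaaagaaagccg
Hey2: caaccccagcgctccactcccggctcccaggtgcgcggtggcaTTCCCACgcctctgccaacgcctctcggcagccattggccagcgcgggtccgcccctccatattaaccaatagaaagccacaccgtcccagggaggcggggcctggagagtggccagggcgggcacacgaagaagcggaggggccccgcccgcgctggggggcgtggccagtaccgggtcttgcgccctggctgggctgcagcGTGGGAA

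The target genes Hey1 and Hes1 had the lowest adjusted p of the 10 genes. Hey1, a repressor known downstream of Notch in arterial ECs, had 283, 299.6, 252 and 261 CPM in normoxia libraries 1 to 4 and 168, 144, 165 and 155 CPM in hyperoxia libraries 1 to 4. The lowest normoxia library was far above the highest hyperoxia library. The mean fell from 274 ± 21.7 CPM (SD, n = 4) to 158 ± 11.0 CPM (SD, n = 4), or 0.576 of normoxia, a log2 fold change of -0.80 (SE 0.0682, 95% interval -0.95 to -0.64, adjusted p = 1.05e-05).

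Hes1, a repressor that acts downstream of Notch in many cell types and also responds to other signals, had 358, 351, 331 and 279.5 CPM in normoxia libraries 1 to 4 and 206, 203, 235 and 246 CPM in hyperoxia libraries 1 to 4. The groups did not overlap, with normoxia library 4 the lowest of its group and closest to hyperoxia. The mean of 329.7 ± 35.3 CPM (SD, n = 4) fell to 222 ± 21.5 CPM (SD, n = 4), or 0.674 of normoxia, a log2 fold change of -0.57 (SE 0.0877, 95% interval -0.76 to -0.37, adjusted p = 0.000579). Per pan-endothelial marker sum the log2 levels of Hey1 and Hes1 were lower by 0.83 and 0.60, with no overlap between the groups for either gene.

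Heyl, a Hey family member expressed in mural cells, had 5.33, 2.73, 1.96 and 1.66 CPM in normoxia libraries 1 to 4 and 6.34, 7.65, 2.75 and 5.49 CPM in hyperoxia libraries 1 to 4. As for Notch3, normoxia library 1 stood high and hyperoxia library 3 low in its group, and the groups overlapped. The log2 fold change of 0.94 (SE 0.383, 95% interval 0.09 to 1.78) had an adjusted p of 0.0812. Without normoxia library 1 it was 1.39 (adjusted p = 0.0113) and without hyperoxia library 3 it was 1.16 (adjusted p = 0.0246). With all 8 libraries kept it also passed without a filter on low counts (adjusted p = 0.0320), with DESeq2 (adjusted p = 0.0425) and with the replicate block (adjusted p = 0.0299). Per mural marker sum the log2 level of Heyl was -4.96 ± 0.398 (SD, n = 4) in normoxia and -5.02 ± 0.417 (SD, n = 4) in hyperoxia, a difference of -0.06, and the part of mural transcripts in its values was not tested.

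Levels of different genes were compared per gene length, as deposited FPKM. In normoxia Hes1 was the highest at 161 ± 17.1 FPKM (SD, n = 4), followed by Dll4 (90.3), Notch4 (88.1) and Hey1 (83.1), whose ranges overlapped from each gene to the next. Notch1 (54.6), Jag2 (31.3) and Jag1 (22.0) came next, each with a range apart from its neighbours. Notch2 (2.28), Notch3 (0.903) and Heyl (0.566) were far lower, the last pair overlapping.

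The order of the mean FPKM levels was the same in hyperoxia, but the gaps were not. Hes1 stood at 109 ± 10.5 FPKM (SD, n = 4), Dll4 at 86.0 and Notch4 at 81.6. Hey1 (48.0) no longer overlapped Notch4 and overlapped Notch1 (46.7) instead. Jag2 (32.7) and Jag1 (17.1) were again apart, while Notch2 (2.86), Notch3 (2.33) and Heyl (1.08) overlapped from each to the next.

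**Figure D4:**
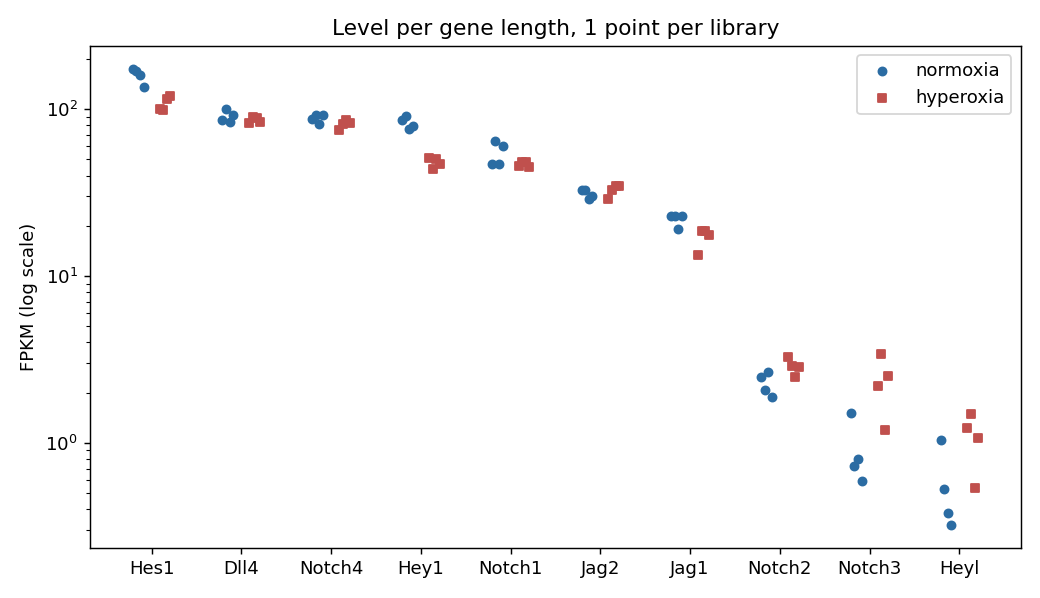
FPKM of each Notch gene (y axis, log scale), 1 point per library (circles, normoxia; squares, hyperoxia), ordered by the mean in normoxia. The 7 genes on the left lie between 13.3 and 175 FPKM and the 3 on the right, Notch2, Notch3 and Heyl, at or below 3.43 FPKM, and Hey1 moves from the range of Notch4 to that of Notch1 in hyperoxia.

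Summed over the 4 receptors the level was 146 ± 13.0 FPKM (SD, n = 4) in normoxia and 133 ± 5.38 FPKM (SD, n = 4) in hyperoxia. Notch4 made up 60.5% and 61.1% of this sum and Notch1 37.3% and 35.0%. These shares depend on the gene length in the deposited data, 14232 bases for Notch1 and 8061 for Notch4. In CPM, which takes no account of length, Notch1 was at 784 and Notch4 at 716 in normoxia. In hyperoxia the 2 receptors were at 668 and 661 CPM. Notch2 went from 1.59% ± 0.384 to 2.16% ± 0.326 and Notch3 from 0.633% ± 0.322 to 1.75% ± 0.680 (SD, n = 4), so that the receptors that rose remained a small part of the receptor transcripts. The 3 targets summed to 244 ± 21.8 FPKM (SD, n = 4) in normoxia and 158 ± 11.1 FPKM (SD, n = 4) in hyperoxia.

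Among the 3 ligands Dll4 made up 62.9% of the summed FPKM in normoxia (60.7% to 64.2%) and 63.4% in hyperoxia (61.5% to 66.2%). The share of Jag1 was 15.3% ± 0.774 and 12.5% ± 1.28, and that of Jag2 was 21.8% ± 1.07 and 24.0% ± 1.11 (SD, n = 4). Within each library, the log2 ratio of Dll4 to Jag1 was 1.91, 2.12, 2.12 and 2.0 in normoxia libraries 1 to 4 and 2.64, 2.26, 2.24 and 2.25 in hyperoxia libraries 1 to 4, higher in hyperoxia without overlap. The difference of means was 0.31 with an exact two-sided permutation p of 0.0286, the smallest that 4 against 4 libraries can give. After Benjamini-Hochberg adjustment over the 3 ratios compared it was 0.0857, which did not pass the threshold. The ratios were chosen with earlier results of these data known, and this one holds Jag1, which fell in the same libraries. Its p-value is therefore not separate evidence of a change. The ratio of Hes1 to Hey1 went from 0.95 ± 0.130 to 1.17 ± 0.155 (exact permutation p = 0.0857, adjusted 0.129, SD, n = 4), and that of Notch1 to Notch4 from -0.70 ± 0.166 to -0.80 ± 0.0699 (exact permutation p = 0.371, adjusted 0.371, SD, n = 4).

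The rest of the pathway was read from 54 genes in 6 lists by role. Of these, 46 passed the filter, 8 rose, 12 fell and 26 did not pass the test, with a median log2 fold change of -0.02. The 20 of 46 that passed stand beside 35.6% of all genes, as given above. Of the other ligands, Dll1, a ligand of arterial ECs, fell from 136 to 106 CPM (-0.36 on the log2 scale, adjusted p = 0.00651). Egfl7, a secreted EC protein that binds Notch and is also on the pan-endothelial list, was at 915 and 887 CPM (-0.04, adjusted p = 0.539). Dll3, Dlk1, Dlk2 and Dner were too low to be tested.

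Of 7 other genes listed as targets 3 were tested. Hey2, a repressor related to Hey1, fell from 6.11 to 3.70 CPM with overlapping groups (log2 fold change -0.72, adjusted p = 0.0269). Nrarp, which dampens Notch signalling and is induced by it, was at 51.0 and 50.5 CPM (-0.01, adjusted p = 0.923), and Hes6 at 20.7 and 20.2 CPM (-0.04, adjusted p = 0.809). Of the 6 genes listed as targets and tested, Hey1, Hes1 and Hey2 were lower, and Heyl, Nrarp and Hes6 did not pass the test. Among all genes tested 17.1% were lower, and the shares were not compared by a test. Whether Notch induces each of the 6 genes in these cells was not tested.

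Of the 5 enzymes that add sugars to the receptors, Mfng, a Fringe glycosyltransferase, had a log2 fold change of 0.26 (176 to 210 CPM, adjusted p = 0.00759) and Pofut1, the O-fucosyltransferase, fell from 62.3 to 55.2 CPM (-0.18, adjusted p = 0.0113). The other Fringe genes were at 78.9 and 79.4 CPM for Lfng and at 25.4 and 24.5 CPM for Rfng. Of the 10 genes of receptor cleavage, 4 rose and 1 fell. Furin, the protease that cuts the receptor on its way to the surface, rose from 135 to 179 CPM (0.41, adjusted p = 4.57e-05). Among parts of gamma-secretase, which releases the intracellular domain, Ncstn rose from 168 to 196 CPM (0.22, adjusted p = 0.000887) and Aph1b by 0.37 on the log2 scale (adjusted p = 0.0205), while Aph1a was at 185 and 182 CPM (adjusted p = 0.668). Adam10, which cuts the receptor after ligand binding, rose by 0.20 (adjusted p = 0.0114) and Adam17, a related protease, fell by 0.19 on the log2 scale (adjusted p = 0.0126).

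Of the 12 genes of the nuclear complex 2 rose and 4 fell. Maml3, a coactivator, rose by 0.22 on the log2 scale with overlapping groups (adjusted p = 0.0215). Spen, a corepressor of RBPJ, fell from 154 to 114 CPM (-0.43, adjusted p = 0.00528) and Maml1, a coactivator, from 98.4 to 80.5 CPM (-0.29, adjusted p = 0.0131). Ep300, a histone acetyltransferase, fell by 0.24 on the log2 scale with overlapping groups (adjusted p = 0.0362). Rbpj itself fell from 57.4 to 51.5 CPM, by 0.16 on the log2 scale (adjusted p = 0.0316). The abundant Ctbp1 and Kat2b were at 229 and 234 CPM and at 151 and 149 CPM.

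Of the 14 genes of ligand endocytosis and receptor turnover 1 rose and 4 fell. Mib2, a ubiquitin ligase for Notch ligands, fell from 59.8 to 39.4 CPM (-0.60 on the log2 scale, adjusted p = 2.12e-05), while Mib1, which has the same role, was at 141 and 139 CPM (-0.02, adjusted p = 0.831). Dtx2 fell from 26.6 to 22.0 CPM (-0.27, adjusted p = 0.00905), Itch, a ubiquitin ligase, by 0.26 (adjusted p = 0.00112) and Numb, an inhibitor of Notch, by 0.18 (adjusted p = 0.0232). Dtx4, at a low level, rose from 1.92 to 3.24 CPM with overlapping groups (0.76, adjusted p = 0.0386). Normoxia library 1 and hyperoxia library 2 were the highest of their groups for Dtx4, as for the mural and fibroblast marker sums. The part of transcripts of cells other than ECs in the results of Dtx4 and the other pathway genes was not tested. Neurl3 and Dtx3, the next most abundant after Numb by FPKM, did not pass the test (adjusted p = 0.205 and 0.62).

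**Figure D5:**
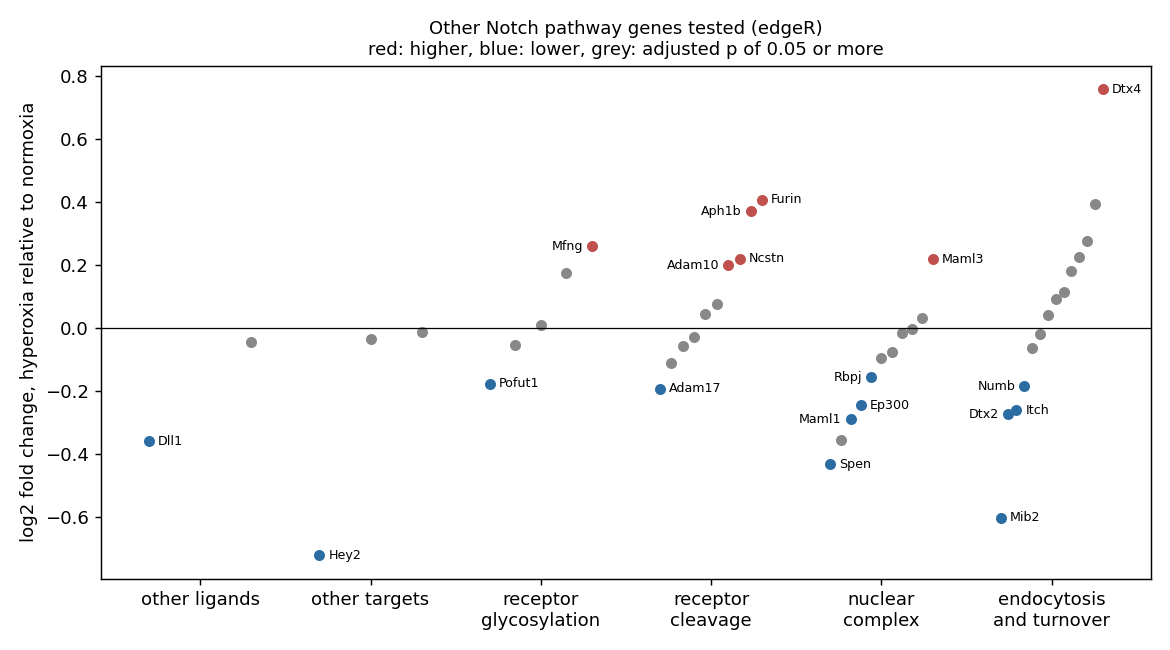
Log2 fold change in hyperoxia relative to normoxia (y axis) of 45 of the 46 other Notch pathway genes tested, grouped by role (x axis), 1 point per gene; named points passed an adjusted p of 0.05. The 7 shown that rose and 12 that fell range from 0.76 for Dtx4 to -0.72 for Hey2.

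Since Hey1, Dll4 and Jag1 are also known in arterial ECs, 9 arterial markers without these genes were read beside them. Of the 9, 4 fell (Gja4, Efnb2, Sox17 and Cxcl12) and 2 rose (Unc5b and Fbln5), with a median log2 fold change of -0.38. Their summed level, in which Efnb2, Cxcl12 and Fbln5 were the most abundant, was 3344 to 3921 CPM in normoxia and 2774 to 3241 CPM in hyperoxia. The list thus held genes that moved in either direction, as Efnb2 and Fbln5 did. Fbln5 was highest in normoxia library 1 and hyperoxia library 2, as were the mural and fibroblast marker sums. Its lowest hyperoxia library was library 1, where that of the sums was library 3. The part of transcripts of cells other than ECs in the Fbln5 value was not tested. Outside the list, Hey1 and Jag1 fell and Dll4 did not pass the test. From single-cell data, the study reported a smaller share of general capillary ECs and a larger share of aerocyte capillary ECs in hyperoxia. The part of a different share of arterial or capillary ECs in the Hey1, Hes1 and Jag1 results was not tested.

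Among protein-coding genes with a mean of at least 10 CPM (9068 compared), the likeness of a gene to each Notch gene was measured as the root mean square distance between their centred log2 CPM profiles over the 8 libraries. Among the 3 nearest to Hey1 were Atf7ip (distance 0.0562) and Ing1 (0.0578), beside a spread of the Hey1 profile itself of 0.408. Nearest to Hes1 were Iqcc, Hinfp and Abtb1 (0.0752 to 0.0929, profile 0.312), and nearest to Jag1 were Tead4, Gpr4 and Sos1 (0.0535 to 0.0699, profile 0.250). Nearest to Notch3 were Col1a2, Ltbp2 and Gsn (0.201 to 0.210, profile 0.853), and nearest to Heyl were Gucy1a1, Npnt and Pdgfrb (0.162 to 0.182, profile 0.754). Col1a2 and Npnt are on the fibroblast list and Gucy1a1 and Pdgfrb on the mural list. For the genes whose own profile varied less, the nearest were Rasal2, Rnf125 and Pcsk5 for Notch1, Ptk2b, Cyba and Dap for Notch2, Heatr5a, Arhgap31 and Mtor for Notch4, Sec24b, Nisch and Efnb1 for Dll4, and Zfand2a, Slc25a37 and 2410002F23Rik for Jag2, at distances of 0.0196 to 0.0821. All of these profiles share the 8 libraries and the group difference within them.

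Some exons of these genes lie over those of another gene, and whether strand was used in counting is not given in the sources used here, so such reads cannot be told apart. The largest overlap by level was that of Dll4 with Gm14207 on the opposite strand (5.56% of the exon bases of Dll4, in GENCODE M21; mean of Gm14207 8.12 CPM). Notch1 shares 7.50% of its exon bases with 0610009E02Rik (0.966 CPM), also on the opposite strand. The partner genes of Notch2 and Notch3 had means of 0.134 and 0.0350 CPM. The gene bodies lie in build GRCm38 on chromosome 3 from 8663359 to 8667256 for Hey1, chromosome 16 from 30064384 to 30067796 for Hes1, chromosome 2 from 137081456 to 137116644 for Jag1, and chromosome 17 from 32120820 to 32166880 for Notch3.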

How the data were processed

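Lung EC libraries of 4 normoxia and 4 hyperoxia samples were grouped by their titles and treatment labels. The authors deposited gene counts (whole numbers, not normalized) and FPKM for 54532 genes with mouse coordinates. The submitters' processing notes name HISAT2 2.0.5, featureCounts 1.5.0-p3 and build mm10. The annotation release, the strand setting and the treatment of reads with several matches are not given in the sources used here. The libraries were made with a SMARTER kit, and the labels name an RNeasy kit for the RNA where the study's methods name TRIzol.

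Counts were tested with edgeR 4.0.16 in R 4.3.3 (quasi-likelihood test, TMM scaling, default expression filter, 15564 genes, group as the only term). The Benjamini-Hochberg adjustment covered every gene tested, and the threshold was an adjusted p of 0.05. CPM were computed with TMM-scaled library sizes. DESeq2 1.42.0 and limma 3.58.1 were alternatives, as were other scalings, filters, a replicate block and leaving out each library. On simulated counts for this comparison (15564 genes), 40.3%, 80.6% and 97.0% of genes changed by 0.5, 1 and 2 on the log2 scale were called. The simulation changed 200 genes, a far smaller share than the 35.6% that passed in the data, so its call rates need not hold there. Ratios of FPKM within a library were compared with an exact two-sided permutation test. The motifs were searched in RefSeq promoter windows of build GRCm38.p6, and gene models were those of GENCODE M21.

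The genes, lists and tests were chosen with earlier results of these data known. The text names all 10 Notch genes, of each pathway list the 3 most abundant by FPKM and up to 3 with the largest change past the threshold, of each marker list the 3 most abundant by CPM and those at 0, and for each Notch gene the 3 most alike; some genes that these rules pick are not reported here. Adam17, Maml3, Ep300, Rbpj, Itch, Mib1 and the names of arterial markers that passed the test were added after their values were seen, as were the names of the untested ligands. The counts set the precision, and molecules were not told apart from copies.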

Additional observations from a re-analysis of the deposited data

Results flagged for a closer look

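Jag1 in normoxia library 3, at 113 CPM, lay apart from the other normoxia libraries, which were at 134, 136 and 135 CPM. Its gap to the nearest of them, divided by the range of the group, was above the 95% critical value of Dixon's test. Of 20 groups tested (10 Notch genes in normoxia and in hyperoxia) this was the 1 that passed, and chance flags about 1 in 20 groups. Jag1 was lower in hyperoxia with this library and without it.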

How the results depend on the processing

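Hey1, Hes1, Jag1 and Notch3 kept their direction and passed the threshold in all 19 alternatives, with a largest adjusted p of 0.000233, 0.00492, 0.0491 and 0.0301. The log2 fold change of Notch3 ranged from 0.78 (limma on log2(FPKM + 1)) to 1.72 (without normoxia library 1). Notch2 was not past the threshold in 12 of 19 alternatives (largest adjusted p = 0.130). Heyl was past it in 5, namely without a filter on low counts, with DESeq2, with the replicate block, and without normoxia library 1 or hyperoxia library 3 (adjusted p of 0.0113 to 0.0425). Notch1 was past it in 2, without normoxia library 1 or 3. Why these calls changed was not tested. Dll4, Jag2 and Notch4 passed in none of the 19. The number of Notch genes past the threshold ranged from 4 to 6 and that of the other pathway genes from 14 to 21. No direction was reversed.

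With the replicate number of the titles as a replicate block, 5 Notch genes (Heyl in place of Notch2, adjusted p = 0.0299 and 0.0601) and 17 other pathway genes passed. Deviations of same-numbered libraries correlated at 0.119, 0.0361, -0.125 and -0.14, and 1 of 4 normoxia libraries correlated best with its own number. What the number marks is not stated, and whether same-numbered libraries share a litter or a day was not tested. For the ratios within a library, 4 pairs cannot give a p under 0.125. Total counts were alike in all libraries (16098086 to 18300730). Counting error weighs most on genes with few counts, among them Heyl, Hey2, Dtx4 and, in normoxia, Notch3, and its part in their values was not tested.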
